A study of Homo sapiens with 6 samples.

Results

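ESRP2 was overexpressed in PANC-1, an established human pancreatic cancer cell line whose control cells already carry ESRP2 RNA. The comparison takes 2 of the 6 libraries of the series: PANC-1 with the control construct that the labels call LPCX, and PANC-1 with ESRP2 overexpression. Both were grown in the same serum-supplemented medium with no treatment, and the labels give no clone, passage or time after the construct was introduced. The other libraries, used here only as a comparison, are PANC-1 with ESRP1 overexpression and the MIA-PaCa2 pancreatic cancer line with LPCX, ESRP2 overexpression or ESRP1 overexpression. Of the 19349 genes of the table with a protein-coding RefSeq transcript, 10177 reached 5 TPM in at least 1 of the 2 PANC-1 libraries and were compared by level. TPM are a length-scaled abundance of transcripts that sums to 1000000 in each library. Transcript shares were read in the 4349 genes with more than 1 transcript and at least 20 TPM in both libraries, which hold 17312 transcripts. Each group is 1 library, so no difference below has a replicate or a test, and each value compares these libraries only. These values keep no record of the reads behind them, so the depth is unknown.

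ESRP1 and ESRP2, the epithelial splicing regulatory proteins, are RNA-binding paralogs that favour the epithelial form of alternatively spliced transcripts. They bind GGU-rich sequence near alternative exons, and their known targets include exons of CD44, ENAH, CTNND1 and the FGF receptors. Most epithelial cells make both proteins, and both are commonly lost when carcinoma cells take on mesenchymal features.

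In the PANC-1 LPCX library ESRP2 stood at 34.8 TPM and in the PANC-1 ESRP2 library at 308 TPM, a log2 ratio of TPM plus 1 of 3.11. The PANC-1 ESRP1 library, which carries the other construct, held 37.7 TPM of ESRP2. MIA-PaCa2 started from 0.0704 TPM with LPCX and reached 197 TPM with ESRP2. PANC-1 with ESRP2 thus had the highest ESRP2 level of the 6 libraries but a smaller ratio to its own control than MIA-PaCa2, where the log2 ratio was 7.53. In TPM the rise was larger in PANC-1. The MIA-PaCa2 ratio starts from 0.0704 TPM, so it depends on the added 1 TPM. ESRP1, the paralog, was near 0 in both libraries compared (0.261 TPM with LPCX and 0.172 TPM with ESRP2). The table lists a single ESRP2 transcript, so RNA from the construct and from the cells' own gene cannot be told apart.

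**Figure D1:**
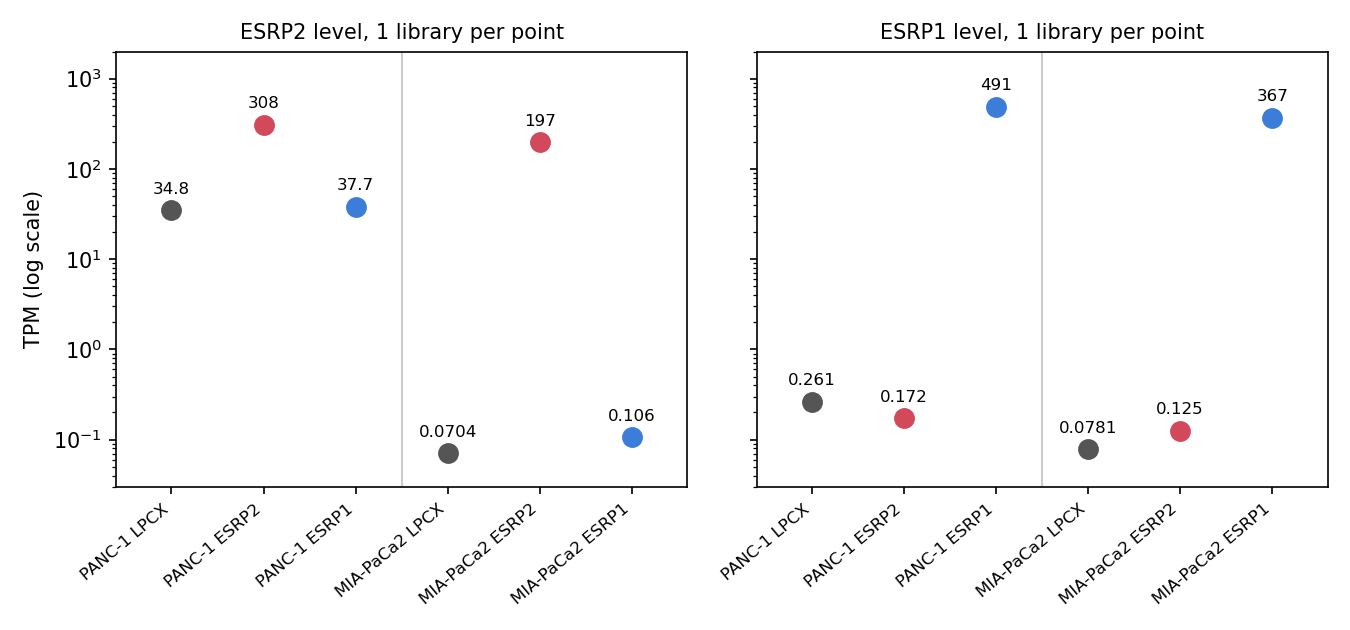
TPM of ESRP2 (left) and ESRP1 (right) in each of the 6 libraries on a log axis, 1 point per library. ESRP2 lies at 34.8 TPM in PANC-1 LPCX but at 0.0704 TPM in MIA-PaCa2 LPCX, while the ESRP2 libraries reach 308 and 197 TPM.

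PANC-1 carried the keratins of a ductal carcinoma line, with KRT8 at 684 and 716 TPM, KRT18 at 695 and 680 TPM and KRT19 at 502 and 366 TPM in the LPCX and ESRP2 libraries. KRT7 was low in both, at 2.00 and 1.57 TPM. The epithelial surface protein EPCAM lay at 24.3 and 28.2 TPM and the junction cadherin CDH1 at 3.89 and 6.98 TPM, beside 4142 and 4738 TPM of the mesenchymal filament VIM. Of the defining markers of other cell types, all 7 endothelial and all 9 acinar and islet markers were under 1 TPM in both libraries. So were 9 of 10 leukocyte markers, the exception being the lysosomal protein CD68 (295 and 364 TPM), and 7 of 9 fibroblast markers, the exceptions being the collagen chain COL1A1 (66.4 and 93.1 TPM) and RGS5 (2.58 and 1.89 TPM), while the fibroblast proteoglycan DCN was listed at 0. Of 10 neuronal markers 5 were under 1 TPM, among them GAP43 at 0, and the list, which holds the expressed tubulin TUBB3 and adhesion protein L1CAM, summed to 398 TPM with LPCX and 538 TPM with ESRP2. The part of these genes in the results below was not tested.

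Many exons were taken up or left out with ESRP2, in CD44, BAIAP2 and USO1 among others. Inclusion of an exon is the TPM of the transcripts that hold it, as a percentage of the TPM of the transcripts that hold it or skip it. It could be read for 1372 alternative exons in 947 genes. Inclusion was at least 10 percentage points higher with ESRP2 for 63 exons in 46 genes, 4.59% of the exons read. It was at least 10 points lower for 45 exons in 41 genes, 3.28% of them. By at least 20 points, 20 exons were higher and 10 lower. These inclusions come from the authors' estimates for whole transcripts, not from junction reads, and neighbouring exons of 1 gene can ride on the same transcripts.

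The exons below are some of those with the largest changes that lie wholly within coding sequence. They are shown so that the reader can see which stretches of RNA were taken up or left out, and the letters are those of GENCODE release 29 transcripts on GRCh38, read 5′ to 3′ on the gene's strand. Capitals mark GGTGG, the DNA spelling of the GGU-rich core. Coding exons of TMEM44, PRC1, LSR, PPP1R12A and GOLIM4 fell more than that of NFYA, lack GGTGG and are not printed. The 204-base exon of CD44, which holds GGTGG, is not printed either.
CD44, chr11:35208105-35208206, plus strand, 102 bases: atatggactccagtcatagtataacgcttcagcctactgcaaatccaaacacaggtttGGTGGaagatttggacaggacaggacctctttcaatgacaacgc
CD44, chr11:35209965-35210054, plus strand, 90 bases: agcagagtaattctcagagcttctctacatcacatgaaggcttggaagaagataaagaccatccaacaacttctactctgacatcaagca
ENAH, chr1:225504991-225505053, minus strand, 63 bases: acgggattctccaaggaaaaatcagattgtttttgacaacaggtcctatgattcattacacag
ARHGEF12, chr11:120409394-120409450, plus strand, 57 bases: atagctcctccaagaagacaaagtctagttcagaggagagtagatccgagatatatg
RAC1, chr7:6398662-6398718, plus strand, 57 bases: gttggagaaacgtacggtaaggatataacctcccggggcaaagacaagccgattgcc
UPF3B, chrX:119840646-119840684, minus strand, 39 bases: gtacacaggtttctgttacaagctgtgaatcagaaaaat
VPS39, chr15:42192066-42192098, minus strand, 33 bases: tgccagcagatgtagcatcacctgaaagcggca
PTPRF, chr1:43602071-43602097, plus strand, 27 bases: tggcggccagaggagtccgaggactat
DNM2, chr19:10808569-10808580, plus strand, 12 bases: ggggagatcctg
MYOF, chr10:93392917-93392955, minus strand, 39 bases: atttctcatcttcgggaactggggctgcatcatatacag
NFYA, chr6:41080811-41080897, plus strand, 87 bases: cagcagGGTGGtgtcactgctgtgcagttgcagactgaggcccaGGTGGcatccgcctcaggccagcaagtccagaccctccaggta

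Among the exons taken up with ESRP2, the largest change was in CD44, the hyaluronan receptor. The 102-base exon shown above was at 12.05% in PANC-1 LPCX, 70.1% in PANC-1 ESRP2 and 80.9% in PANC-1 ESRP1. The 90-base exon downstream has the same values, since the same transcripts hold it. The next exon, of 204 bases, went from 17.5% to 71.9%, and 5 exons upstream, of 114 to 132 bases, stood at 4.91% with LPCX and 28.5% with ESRP2. Total CD44 differed far less, with 772 and 867 TPM.

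Of the other exons with large gains, those of RAC1, ARHGEF12, ENAH and BAIAP2 lie in genes with known roles at the actin cytoskeleton. The 57-base exon of RAC1, a small GTPase that drives membrane ruffling, gives the form known as RAC1B. It was included at 20.2% with LPCX and 42.7% with ESRP2, against 24.96% with ESRP1. ARHGEF12 is an exchange factor for small GTPases, and its 57-base exon stood at 41.1%, 64.5% and 56.6% with LPCX, ESRP2 and ESRP1. The 63-base exon of ENAH, which promotes actin filament growth, was at 4.45% with LPCX, 27.9% with ESRP2 and 41.2% with ESRP1. For BAIAP2, which links Rac to the membrane, a 46-base exon that is partly coding was at 31.9%, 66.2% and 52.0%. The transcripts that hold or skip this exon made up 31.4 of the gene's 80.3 TPM with LPCX and 45.5 of 86.1 TPM with ESRP2. In MIA-PaCa2 LPCX they had 10.3 TPM, near the minimum of 10 TPM.

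USO1, DNM2 and VPS39 encode proteins of membrane traffic. USO1 tethers vesicles at the Golgi, and a 12-base and a 21-base exon held by the same transcript were at 23.2% with LPCX and 54.3% with ESRP2. DNM2, the dynamin that pinches off endocytic vesicles, included its 12-base exon at 67.1% with LPCX and 89.97% with ESRP2. VPS39, a tethering subunit for fusion with lysosomes, had its 33-base exon at 2.85% and 25.5%. In these genes the ESRP1 library lay between the other PANC-1 libraries, at 41.7% for USO1, 86.3% for DNM2 and 19.2% for VPS39.

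Further large gains were in UPF3B, PTPRF and LRRC14. UPF3B acts in nonsense-mediated decay, and its 39-base exon was at 9.92% with LPCX and 33.0% with ESRP2. PTPRF, a receptor tyrosine phosphatase, included a 27-base exon at 9.84% and 29.6%. The LRRC14 exon, which is untranslated, was at 59.2% and 81.8%. With ESRP1 these exons were at 24.99%, 14.8% and 85.8%.

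Fewer exons were left out, and the largest loss was in MYOF, a protein of membrane repair. Its 39-base exon was held by 97.0% of transcripts with LPCX and 65.7% with ESRP2, and by 82.1% with ESRP1. PRC1 bundles microtubules in cytokinesis, and its 42-base exon was at 59.1%, 35.4% and 37.4% in the same order. NFYA, a subunit of the CCAAT-binding factor NF-Y, had the 87-base exon printed above at 48.6%, 27.6% and 29.9%. The 147-base exon of LSR, a protein of tricellular junctions, was at 80.1%, 57.5% and 61.4%. PPP1R12A, which targets the phosphatase of myosin, had a 168-base exon at 61.5%, 40.4% and 49.7%. The Golgi protein GOLIM4 differed from these in that ESRP1 lay close to LPCX, with its 84-base exon at 92.8%, 71.7% and 87.9%. TMEM44 (55.8%, 26.3% and 33.6% for a 141-base exon) and POMZP3 (87.4%, 56.4% and 52.0% for a 138-base exon) are the others of the 8 largest losses. POMZP3 arose from parts of other genes that it still resembles, so its values are uncertain.

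**Figure D2:**
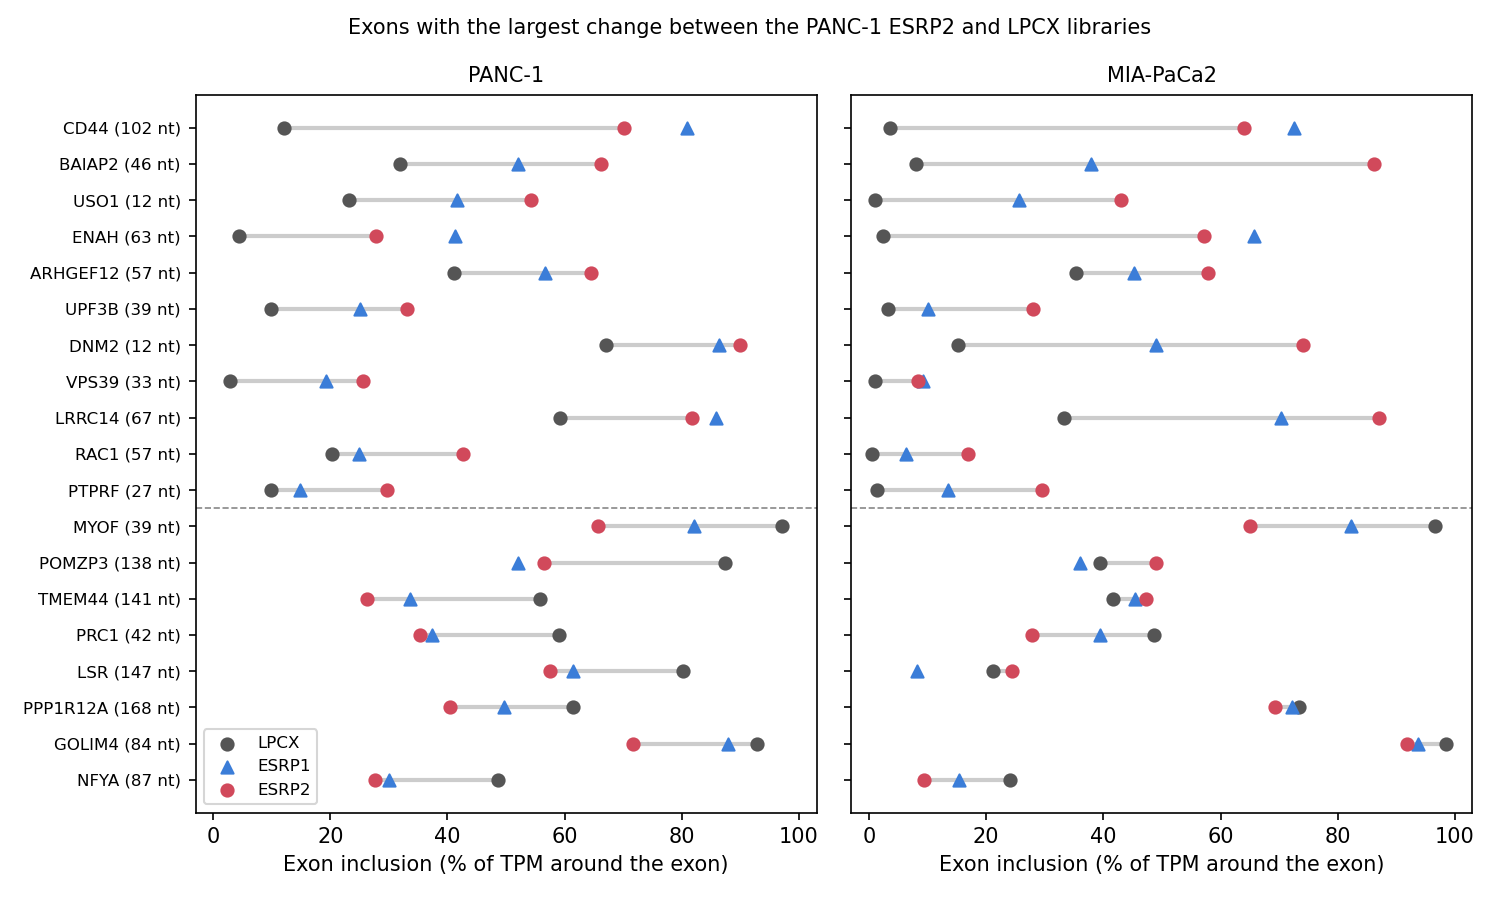
Inclusion (percent) of 11 of the exons with the largest gain and, under the dashed line, the 8 with the largest loss in PANC-1, 1 per gene, in PANC-1 (left) and MIA-PaCa2 (right). Points are single libraries and grey bars join LPCX to ESRP2. In PANC-1 the CD44 exon spans 12.05% to 70.1%, and the bars of BAIAP2, ENAH, DNM2 and LRRC14 are longer in MIA-PaCa2.

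The lengths and letters of the exons that moved are given as a description, with untranslated exons and exons that ride on the same transcripts counted. Lengths divisible by 3 made up 68.3% of the 63 exons with higher inclusion and 75.6% of the 45 with lower inclusion, against 58.9% of the 1264 others. The CD44 exons among the 63 all have lengths divisible by 3. Exons wholly within coding sequence made up 84.1%, 75.6% and 70.8% in the same order. Median lengths were 90, 97 and 102 bases. The letters GGTGG occurred within 9.52% of the exons with higher inclusion, 11.1% of those with lower inclusion and 14.9% of the others, and the reverse complement CCACC within 11.1%, 20% and 18.2%. Over all 1372 exons the shares were 14.5% and 17.9%. A share of this kind also depends on exon length. Per kilobase of exon, GGTGG occurred 1.56, 1.45 and 1.43 times in the same order, and CCACC 1.21, 2.07 and 1.82 times. The introns beside these exons were not read here, so these counts say nothing about sites outside the exon.

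Transcript shares, each transcript's percentage of its gene's TPM, gave a wider view because they need no exon model. A share was at least 10 points higher with ESRP2 for 363 of 17312 transcripts (2.1%) and at least 10 points lower for 324 (1.87%). Together they touched 411 of 4349 genes (9.45%), 67 of them by 20 points. The level of these genes had a median log2 ratio of 0.08 against 0.12 for the 3938 other genes, and 6 of the 411 (1.46%) differed by 1.5-fold, against 26 of the others (0.66%). Genes with a moved share had lower TPM (median 38.2 against 57.2) and more transcripts (median 4 against 3), and the part of either in these counts was not tested.

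Of 31 genes listed as ESRP splicing targets with enough TPM, 19 had a share that moved by 10 points (61.3%, against 9.45% of all genes). The list was written with earlier results of these data known, so the gap to all genes is a description and not independent support. Of these, 8 moved by at least 20 points, in CD44, MYOF, USO1, DNM2, CTNND1, ENAH, BAIAP2 and RAC1. CTNND1 encodes p120 catenin, which holds cadherins at the membrane. One of its transcripts, NM_001085468, had 29.03% of the gene with LPCX, 55.1% with ESRP2 and 61.2% with ESRP1. TCF7L2, a transcription factor of Wnt signalling, had NM_001146274 at 8.27%, 28.2% and 22.2%. MAP3K7, a kinase of inflammatory signalling, held its 81-base exon at 12.5%, 29.2% and 17.5%. Of the 12 targets below the step, ARFGAP2, EXOC1 and ARHGEF11 moved least, with largest share changes of 2.20, 2.97 and 3.16 points. FGFR2, a classic target, lay at 4.64 and 8.14 TPM, below the level at which shares were read.

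Outside the list, large share changes fell into those that MIA-PaCa2 also showed and those that it did not. CYB561A3, a member of the cytochrome b561 family, had NM_001300763 at 8.63% with LPCX and 61.3% with ESRP2 in PANC-1, and at 0.00% and 50.5% in MIA-PaCa2. TUFT1 (tuftelin) had NM_020127 at 31.7% and 66.1% in PANC-1, and at 15.7% and 56.5% in MIA-PaCa2, where the gene was at 11.1 and 10.1 TPM, below the level at which shares were otherwise read. MYO18A, an unconventional myosin, had NM_203318 at 46.0% and 14.2% in PANC-1, and at 65.7% and 29.6% in MIA-PaCa2. In these 3 genes both lines moved the same way.

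In DGKD, PSIP1 and C9orf69 the named transcript moved far less in MIA-PaCa2 or the other way. DGKD, a diacylglycerol kinase, had NM_003648 at 44.9% with LPCX and 0.478% with ESRP2 in PANC-1, but at 4.88% and 2.86% in MIA-PaCa2. PSIP1, a chromatin-binding coactivator, had NM_033222 at 12.2% and 51.5% in PANC-1, but at 26.9% and 20.2% in MIA-PaCa2. For C9orf69, NM_001256526 was at 46.8% and 85.1%, but at 37.1% and 39.8% in MIA-PaCa2. RAB40C, BSCL2, SCAF8, TMEM44, RBPMS2 and SERF1B were also among the largest share changes, and SERF1B shares nearly all its sequence with SERF1A, which makes its share uncertain.

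PANC-1 with ESRP2 and MIA-PaCa2 with ESRP2 have no library in common, so 1 line can be read on items picked in the other. In 3569 genes with 20 TPM in all 4 libraries, 274 transcript shares were 10 points higher in PANC-1 and 306 in MIA-PaCa2. They shared 66, which is 24.1% of the PANC-1 set and 21.6% of the MIA-PaCa2 set, where 2.16% of all these transcripts were higher in MIA-PaCa2. Another 16 were higher in PANC-1 and lower in MIA-PaCa2, 5.84% of the PANC-1 set against 2.13% of all. Lower shares numbered 239 and 302, with 51 in common (21.3% and 16.9% of the sets, against 2.13% of all), and 16 moved the opposite way (6.69%, against 2.16% of all). At 20 points 17 of 45 higher and 14 of 34 lower shares of PANC-1 were also in the MIA-PaCa2 set, which held 0.395% and 0.36% of all transcripts, and 0 moved the opposite way.

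In the 4 libraries 1157 exons could be read, with 54 higher (4.67%) and 31 lower (2.68%) in PANC-1 by 10 points. Of the 67 exons higher in MIA-PaCa2, 33 were also higher in PANC-1 by 10 points, 56 had the same sign and 0 were lower by 10 points. The 33 exons make up 49.3% of the MIA-PaCa2 set and 61.1% of the PANC-1 set. Of the 31 exons lower in MIA-PaCa2, 9 were also lower in PANC-1, 25 had the same sign and 0 were higher by 10 points.

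The size of the change differed between the lines. The 67 exons higher in MIA-PaCa2 gained a median of 16.5 points there and 9.77 points in PANC-1, and 52 of them gained less in PANC-1. A set picked in 1 line tends to look larger in that line, so the reverse reading is given too. The 54 exons higher in PANC-1 gained a median of 17.1 points there and 14.4 points in MIA-PaCa2, and 18 gained more in MIA-PaCa2. At 20 points, the 20 exons of 11 genes picked in PANC-1, 8 of them in CD44, gained a median of 23.6 points in PANC-1 and 41.9 points in MIA-PaCa2, and 11 of the 20 gained more in MIA-PaCa2. Exons of CD44 and of USO1 ride on shared transcripts, and the median of 41.9 points is the value of both USO1 exons. The 102-base exon of CD44, which counts as larger in MIA-PaCa2, gained 58.1 points in PANC-1 and 60.3 points there. The part of the choice of exons in these gaps was not tested.

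**Figure D3:**
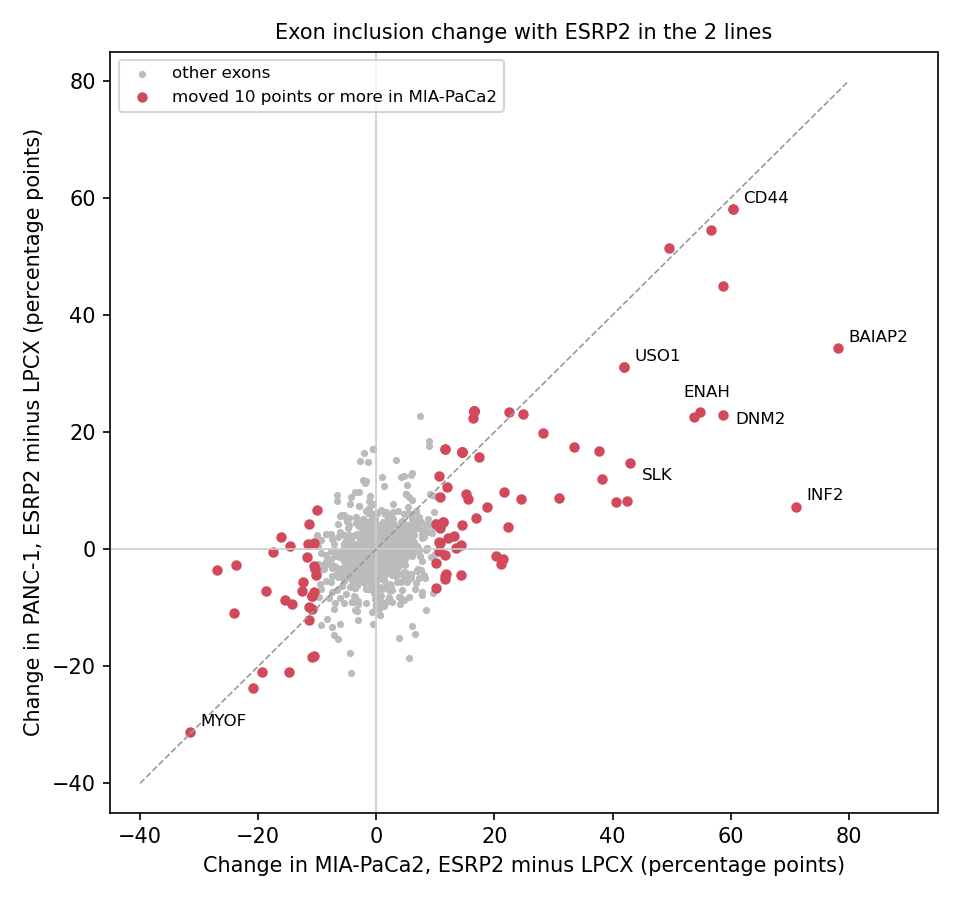
Change in inclusion with ESRP2 (percentage points, ESRP2 minus LPCX) of 1157 exons, in MIA-PaCa2 (x axis) and PANC-1 (y axis), with the dashed line marking equal change. Red exons moved by 10 points or more in MIA-PaCa2, and most of those on the right, such as INF2 and BAIAP2, lie under the line.

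The control libraries of the lines also started at different points. Of the 67 exons higher with ESRP2 in MIA-PaCa2, 30 (44.8%) were at least 10 points higher in PANC-1 LPCX than in MIA-PaCa2 LPCX, against 12.3% of all 1157 exons, and 11 (16.4%) were at least 10 points lower, against 8.47% of all. MIA-PaCa2 LPCX helped to pick these exons, so this is a description. INF2, a formin that assembles actin, showed the widest gap. Its 57-base exon was at 17.3% in MIA-PaCa2 LPCX and 88.3% with ESRP2, but at 86.4% in PANC-1 LPCX and 93.6% with ESRP2. ITGA6, the integrin subunit alpha 6, had a 130-base exon at 39.0% and 79.5% in MIA-PaCa2 and at 88.7% and 96.7% in PANC-1. NF2, which encodes merlin, had a 45-base exon at 48.0% and 90.4% in MIA-PaCa2 and at 83.8% and 92.1% in PANC-1. In these 3 genes PANC-1 LPCX lay near the level that MIA-PaCa2 reached with ESRP2. Whether the ESRP2 that PANC-1 makes itself set those levels was not tested, since no library lowers it and the lines differ in many other ways.

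Exons of SLK, ENAH and FNIP1 began no higher in PANC-1, or only slightly, and gained less there. The 93-base exon of SLK, a kinase of the cytoskeleton, was at 0.999% in PANC-1 LPCX and 15.7% with ESRP2, and at 0.827% and 43.7% in MIA-PaCa2. The ENAH exon reached 27.9% in PANC-1 and 57.1% in MIA-PaCa2 from 4.45% and 2.40%. FNIP1, a partner of folliculin, had an 84-base exon at 21.8% and 33.7% in PANC-1, and at 41.0% and 79.3% in MIA-PaCa2.

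Some exons changed about as much in PANC-1 or more. The CD44 exon was 58.1 points higher with ESRP2 in PANC-1 and 60.3 points higher in MIA-PaCa2, and the UPF3B exon 23.1 and 24.8 points. The RAC1 exon was 22.5 points higher in PANC-1 and 16.5 points higher in MIA-PaCa2, and the VPS39 exon 22.7 and 7.36 points. The MYOF exon changed by -31.3 points in PANC-1 and -31.5 points in MIA-PaCa2. By the difference between the lines, the exons furthest toward PANC-1 were in GSE1, CLIP1, CENPU, TCF20 and MUM1. In GSE1, CLIP1 and TCF20 the gap came from a lower inclusion with ESRP2 in MIA-PaCa2, where GSE1 went from 80.8% to 53.8% and CLIP1 from 30.6% to 6.88%. In CENPU and MUM1 it came from PANC-1, where CENPU went from 60.5% to 76.8% and MUM1 from 37.0% to 52.2%.

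Levels of whole genes differed little. The central 95% of the 10177 coding genes had log2 ratios between -0.42 and 0.44, and 98.4% of them lay within 1.5-fold. At least 2-fold, 12 genes were higher with ESRP2 (0.118%) and 15 lower (0.147%), and 8 and 16 when the libraries were scaled by their median ratio. At 1.5-fold, 78 were higher (0.766%) and 86 lower (0.845%). The median log2 ratio was 0.11, so most genes lay slightly above LPCX, and changes of gene lists are given against this median below. Transcripts without a coding sequence took 12.97% of the TPM with LPCX and 10.1% with ESRP2, and since TPM sum to a fixed total such a gap bears on the level of all other genes.

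**Figure D4:**
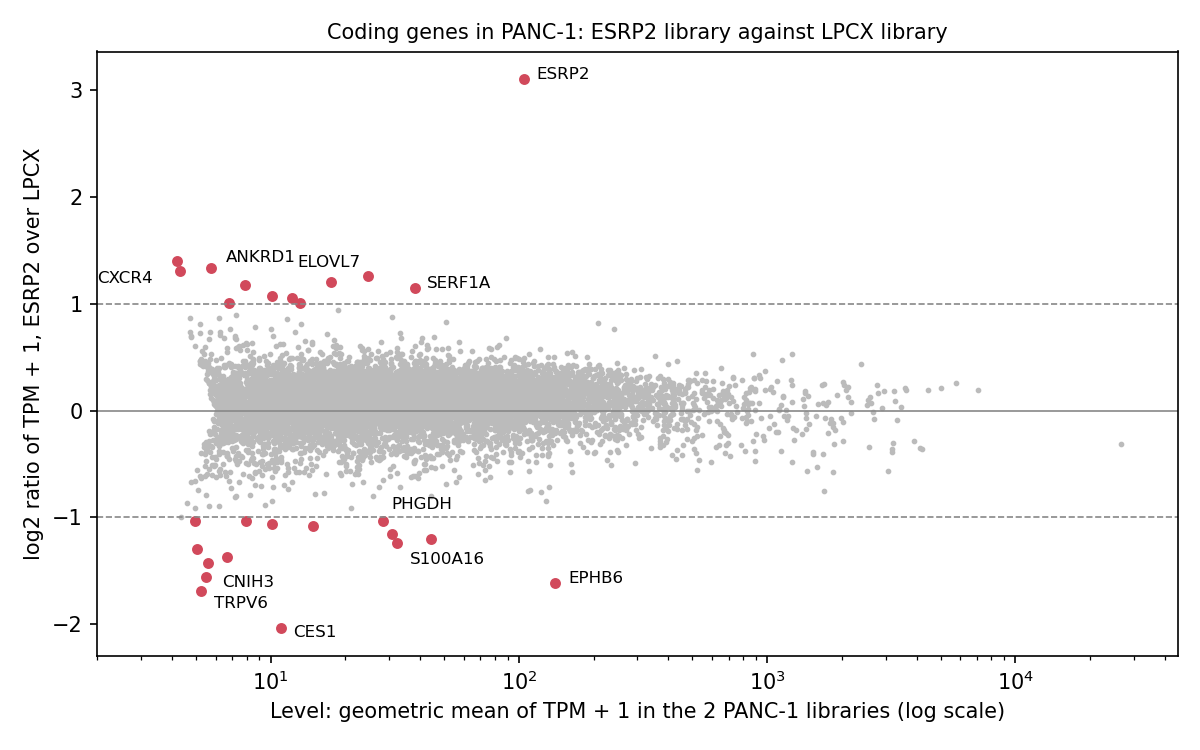
Log2 ratio of TPM plus 1 (ESRP2 over LPCX) of 10177 coding genes in PANC-1 against their level on a log axis, 1 point per gene. Red points are the 12 genes higher and 15 lower by 2-fold (dashed lines), most of them at low levels, with ESRP2 itself at 3.11.

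After ESRP2, the genes furthest up at 20 TPM or more in either library included ELOVL7, PCTP and APOE, which handle lipids. ELOVL7, which elongates fatty acids, was at 10.5 TPM with LPCX, 25.5 TPM with ESRP2 and 19.1 TPM with ESRP1. PCTP, which carries phosphatidylcholine, was at 37.2, 66.7 and 53.8 TPM, and the lipoprotein APOE at 184, 313 and 262 TPM. Other genes on this side were the drug exporter ABCG2 (12.5, 24.9 and 20.8 TPM), the actin crosslinker FLNC (21.7, 40.7 and 29.8 TPM), the stress cytokine GDF15 (155, 275 and 214 TPM) and the kinase ABL2 (34.96, 57.1 and 44.8 TPM). In these 7 genes ESRP1 lay between LPCX and ESRP2. LOC100129216, SMIM10 and HMSD had log2 ratios of 1.26, 0.72 and 0.72.

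The genes furthest down were led by CES1, a carboxylesterase that hydrolyses drugs and lipids, at 21.3 TPM with LPCX, 4.42 TPM with ESRP2 and 13.3 TPM with ESRP1. A near-identical pseudogene makes the level of CES1 uncertain. EPHB6, a member of the ephrin receptor family without kinase activity, was at 245, 79.2 and 124 TPM. PHGDH, the first enzyme of serine synthesis, was at 39.4, 18.7 and 26.7 TPM. S100A16, a calcium-binding protein, was at 48.7, 20.1 and 29.9 TPM, and the coronin CORO6 at 44.9, 19.6 and 23.0 TPM. ADIRF, GJB2 (connexin 26), CD99L2 and ABCC3, an exporter of organic anions, had log2 ratios from -1.08 for ADIRF to -0.80 for ABCC3. TMSB15B, at -0.77, has a near-identical copy.

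SERF1A and SERF1B are near-identical copies, and their values moved against each other. SERF1A was at 24.5 TPM with LPCX and 55.6 TPM with ESRP2, while SERF1B was at 66.3 and 28.3 TPM. With ESRP1 they were at 8.33 and 95.1 TPM. Reads from these copies cannot be told apart with certainty, so neither value is read as a change of its gene. Both are still included in the counts of genes past 1.5-fold and 2-fold above. SERF1A is also included in the count of opposite moves in MIA-PaCa2 below.

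Few of these genes were shared with MIA-PaCa2. Among 9215 coding genes at 5 TPM in both lines, 39 were higher by 1.5-fold in PANC-1 and 48 in MIA-PaCa2, and 3 in both, namely ESRP2, the epithelial transcription factor GRHL1 and RRN3, a factor of RNA polymerase I. That is 7.69% of the PANC-1 set and 6.25% of the MIA-PaCa2 set, where 0.521% of all genes were higher in MIA-PaCa2. ESRP2 is the overexpressed gene in both lines, so its place among the 3 was fixed in advance. GRHL1 passed the 5 TPM filter in MIA-PaCa2 only through the ESRP2 library (3.21 TPM with LPCX and 8.19 TPM with ESRP2). These shares are therefore a description only. Lower by 1.5-fold were 56 genes in each line and 4 in both, namely CAMK1, CD99L2, PRKCA and RPS29 (7.14% of each set, against 0.608% of all genes). Opposite moves were seen too. Of the 39 genes higher in PANC-1, 5 were lower in MIA-PaCa2 (12.8%, against 0.608% of all genes), and of the 56 lower in PANC-1, 4 were higher in MIA-PaCa2 (7.14%, against 0.521%). In MIA-PaCa2, 21 of the 39 (53.8%) lay above the median ratio of all these genes and 33 of the 56 (58.9%) lay below it. A median leaves equal numbers of all genes on each side, so these counts are near the background. CES1, EPHB6, ABCG2 and APOE were all under 1 TPM in MIA-PaCa2 LPCX and ESRP2, so they could not be compared there.

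Of the pathway lists, cholesterol synthesis lay furthest above the median of all coding genes. Its 24 measured members had a median log2 ratio of 0.33, 0.22 above that of all genes, and 23 of the 24 lay above it. HMGCS1, an early enzyme, was at 33.8 TPM with LPCX, 51.1 TPM with ESRP2 and 48.5 TPM with ESRP1. MVK, mevalonate kinase, was at 39.2, 58.9 and 46.5 TPM, and DHCR7, which makes cholesterol in the last step, at 295, 421 and 389 TPM. None reached 1.5-fold. Fatty acid synthesis was next, with a median of 0.25 and 12 of 14 members above the median of all genes, among them the desaturase SCD at 979 and 1356 TPM. In PANC-1 with ESRP1, set against the same LPCX library, the cholesterol and fatty acid lists had medians of 0.28 and 0.25. In MIA-PaCa2 with ESRP2 the medians were 0.02 and 0.14.

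The ribosomal and respiratory chain lists lay lowest. Cytosolic ribosomal proteins had a median of -0.11, with 51 of 60 below the median of all genes, and respiratory chain subunits a median of -0.02, with 31 of 45 below it. The transcripts of these lists have median lengths of 829 and 961 bases. The metallothionein and zinc transport list, with the shortest median length (786 bases), had a median log2 ratio of 0.23. Over all coding genes split by transcript length into 3 bins of equal size, the median log2 ratio was 0.05 in the shortest, 0.11 in the middle and 0.16 in the longest, and the part of length in the list values was not tested. RPS29, the ribosomal protein furthest down, was at 2197 TPM with LPCX, 1303 TPM with ESRP2 and 2391 TPM with ESRP1.

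The epithelial junction and identity genes had a median of 0.20, and 19 of 28 lay above the median of all genes. CDH1 was at 3.89 TPM with LPCX, 6.98 TPM with ESRP2 and 8.59 TPM with ESRP1, and GRHL1 at 6.68, 12.01 and 11.6 TPM. SPINT1, a protease inhibitor of epithelia, was at 5.49, 8.995 and 9.01 TPM. On the other side lay ITGB4, the integrin subunit beta 4 (8.37 and 4.88 TPM), and KRT19. By 1.5-fold, 4 of the 28 members were higher, with ESRP2 among them, and 1 was lower, against 0.766% and 0.845% of all coding genes. ESRP2 is the overexpressed gene itself. CDH1 passed the 5 TPM filter only through the ESRP2 library. Both genes are also in the list median and in the 19 of 28. These values and the count of higher members are therefore a description only. The grainyhead factor GRHL2 and the epithelial factor OVOL1 stayed under 0.1 TPM in both libraries.

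Mesenchymal genes had a median of 0.00, with 10 of 16 below the median of all genes and 0 past 1.5-fold, a count near the background, since 98.4% of all coding genes lay within it. The repressor ZEB1 was at 19.2 TPM with LPCX and 19.6 TPM with ESRP2. N-cadherin (CDH2) was at 32.4 and 47.2 TPM, and S100A4 at 634 and 430 TPM.

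**Figure D5:**
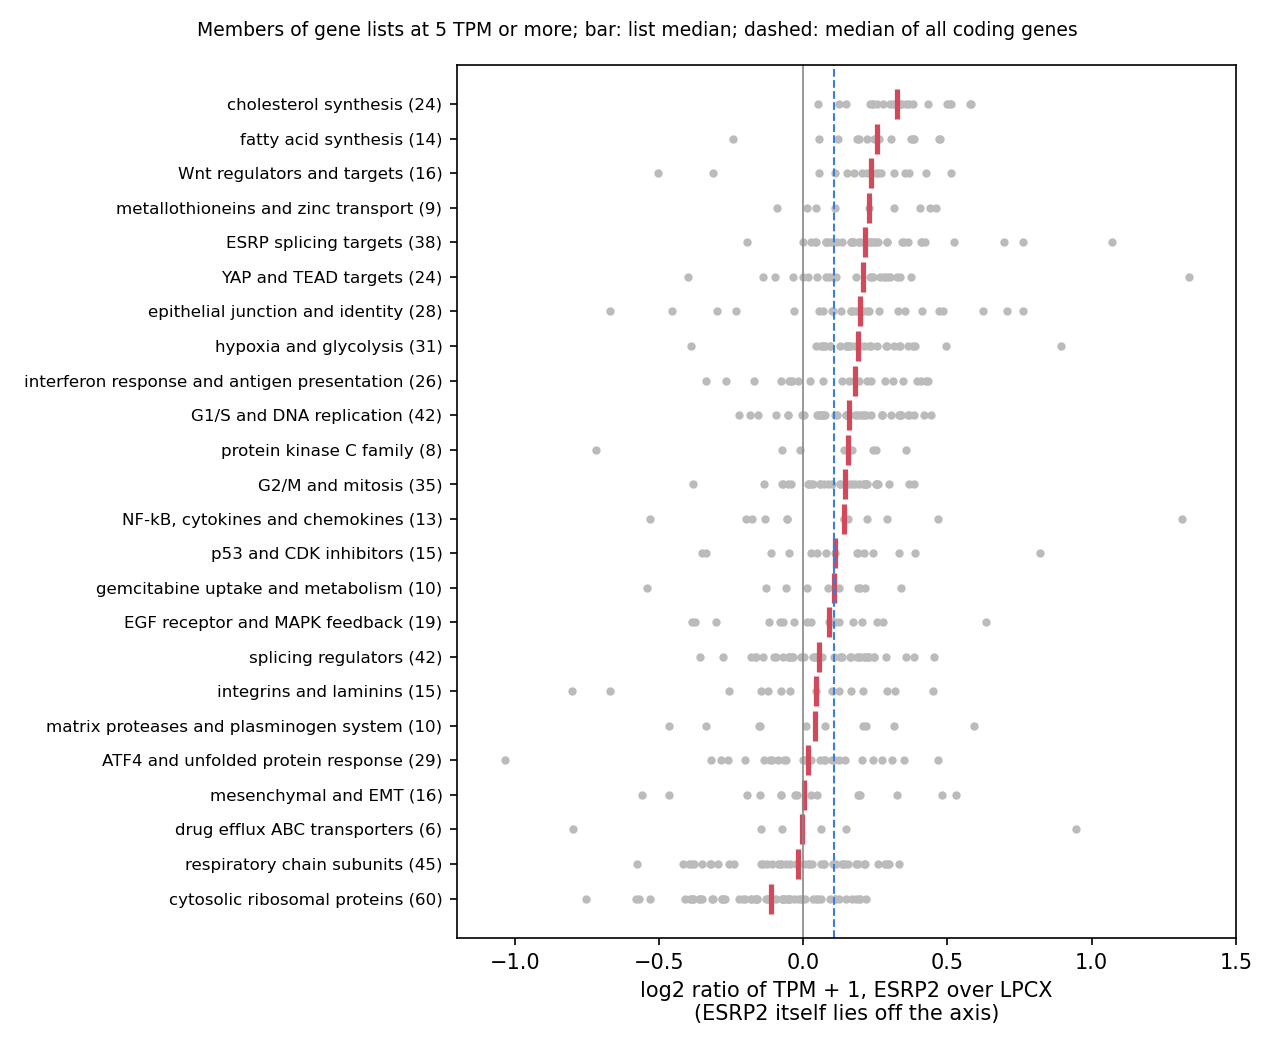
Log2 ratio of TPM plus 1 (ESRP2 over LPCX in PANC-1) of the members at 5 TPM or more, 1 grey point per gene, in lists with at least 6 such members. Red bars are list medians, from -0.11 for ribosomal proteins to 0.33 for cholesterol synthesis, and the dashed line is the median of all coding genes at 0.11. ESRP2 itself lies off the axis.

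Of 42 other splicing regulators measured, 0 passed 1.5-fold in either direction, where 98.4% of all coding genes also lay within it, and their median log2 ratio of 0.06 lay just below that of all genes. PTBP3 was furthest up, at 55.8 and 76.7 TPM, and TIA1 was at 45.3 and 35.2 TPM. MBNL1 was at 58.2 and 59.9 TPM and RBFOX2 at 28.2 and 30.5 TPM. The genes of the ESRP target list had a median level change of 0.21, with 3 of 38 higher by 1.5-fold (0.766% of all coding genes were), OSBPL3, GRHL1 and FGFR2. FGFR2 passed the 5 TPM filter only through the ESRP2 library. The remaining pathway lists had medians between -0.01 and 0.24. Within them ANKRD1, a target of YAP (2.62 and 8.16 TPM), and CXCR4, a chemokine receptor (1.74 and 5.81 TPM), were furthest above LPCX, and PHGDH and ABCC3 were among those furthest below it. ANKRD1 and CXCR4 also passed the 5 TPM filter only through the ESRP2 library.

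The ESRP1 library of PANC-1 shares its control with the ESRP2 library, so values were set side by side above. Compared with each other directly, the ESRP2 and ESRP1 libraries of PANC-1 differed by 2-fold in 3 of 10177 genes each way. A share differed by 10 points in 339 of 4496 genes (7.54%), against 411 of 4349 genes (9.45%) between ESRP2 and LPCX. At 20 points the counts were 24 and 67 genes. Of the 19 exons in the plot of inclusion by library, CD44, ENAH and LRRC14 were further from LPCX with ESRP1 among the gains and POMZP3 among the losses. The other 15 were further from LPCX with ESRP2, which the choice of these exons by their ESRP2 change favours.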

How the data were processed

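The values are TPM, a length-scaled signal per RefSeq transcript that the authors deposited in 1 table of 67792 rows for 6 mRNA libraries, 1 per line and construct. Salmon and the build GRCh38 (hg38) are named in the submitters' processing notes, without a version in the sources used here. Removing 8664 repeated rows left 59128 transcripts and 1000000 TPM per library. The header of the MIA-PaCa2 ESRP2 column reads ESRP12 and that of MIA-PaCa2 LPCX is misspelled, so both were assigned by elimination.

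TPM were summed by gene symbol. Log2 ratios used TPM plus 1. For exons, 40643 transcripts (68.7%) paired 1 to 1 with GENCODE 29 transcripts, and genes needed 20 TPM, 90% of their TPM in paired transcripts and 10 TPM around the exon. Exons needed inclusion of 5% or more in a library and 95% or less in one. The steps were tested on simulated data. Pandas 2.3.3 was used.

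Members, lists and steps were chosen with earlier results of these data known. Named items are set markers, the 12 genes furthest up and down at 20 TPM, the 15 largest share changes, the 12 largest gains and 8 largest losses of exons, up to 3 members per list, and 5 exons per direction that differ most between the lines. Others were named after their values were seen. Alternatives changed the pseudocount, filters, scaling, steps and pairing. Results for 2 genes are not reported here.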

Additional observations from a re-analysis of the deposited data

Results flagged for a closer look

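A few named genes had ratios of opposite sign in the 2 lines with ESRP2, each by at least 1.5-fold. The difference between the lines was not tested in any of them, since each rests on single libraries. CXCR4 had a log2 ratio of 1.31 in PANC-1 (1.74 to 5.81 TPM) and -1.32 in MIA-PaCa2 (26.8 to 10.1 TPM). ITGB4 had -0.67 in PANC-1 and 0.60 in MIA-PaCa2, where its level was 113 and 172 TPM. KRT15, a basal keratin, had -0.66 in PANC-1 (7.55 to 4.41 TPM) and 0.92 in MIA-PaCa2 (32.4 to 62.1 TPM). SERF1A had 1.15 in PANC-1 and -1.41 in MIA-PaCa2, and its near-identical copy makes both values uncertain. No exon read in the 4 libraries moved by 10 points in opposite directions in the 2 lines, a count of 0 among 1157.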

How the results depend on the processing

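The counts moved most with the filters, the pseudocount and the step. The 12 genes higher and 15 lower by 2-fold became 3 and 5 with a pseudocount of 5 TPM, 19 and 35 with a filter of 1 TPM or with none, and 2 and 3 with 20 TPM required in both libraries. Under median ratio scaling they were 8 and 16. The 363 higher and 324 lower shares became 666 and 582 at a gene minimum of 10 TPM, 113 and 96 at 50 TPM, and 59 and 48 at 20 points. The 63 exons with higher and 45 with lower inclusion became 95 and 81 at 10 TPM, 31 and 17 at 50 TPM, and 20 and 10 at 20 points. They became 88 and 72 when transcripts with a shared GENCODE partner were kept, and were 59 and 42 when the transcripts around an exon had to hold 50% of the gene, 2 settings chosen after seeing the data. Of the 98 exons moved in MIA-PaCa2, the 42 that moved alike in PANC-1 became 15 at 20 points and 24 at 50 TPM. No named gene with a ratio past 1.5-fold changed sign. Of the alternatives for single genes 308 stayed close and 10 moved, those 10 with a pseudocount of 0.1 TPM. Under up to 4 settings the YAP and NF-kB lists changed sides of the median of all genes, and the other 25 lists did not. No paired analysis was possible because each group is 1 library with no replicate number, so leaving out replicates was not possible either. The unknown depth limits low levels most.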
